A study of Glycine max with 4 samples.

Results

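Between 17.5 and 18.8 Mb of soybean chromosome 6, 49 consecutive aCGH probes had a very low mean ratio of mutant to wild-type DNA. This held for 3 of the 4 fast neutron plants examined, and in the other the mean ratio was near 0 on the log2 scale. In each of the 3 plants 43 of the probes were at or below -2, and the other 6 were higher. The low stretch ran from position 18128869 to position 18201820 (positions as given in the deposited files; the array was designed on genome version Glyma.Wm82.a2.v1). The window was made of all probes that start between these limits on chromosome 6, which gave 1299 of the 951615 probes of the array. It had been chosen because the ratios in it were low, so the ratios are given as a description and carry no test of their own. The 49 probes are called the stretch, and the other 1250 probes of the window the flanks.

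The study used aCGH to look for structural variants in plants descended from a fast neutron mutant. Leaf DNA of each mutant plant was labeled with Cy3 and leaf DNA of the wild-type parent, “M92-220” (M92-220-Long in the labels), with Cy5, and both were hybridized to the same array. Plants 35 and 45 carried the label CM7F040P06 (P06) and plants 15 and 39 the label CM7F040P05 (P05), so each line had 2 plants with 1 array each. All 4 plants were fast neutron mutants, the same reference stood on every array, and the dyes were not swapped, so dye and genotype cannot be told apart. The labels do not state how the 2 lines are related, and nothing in them says whether the plants of a line are sister plants.

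Fast neutrons break DNA strands, and faulty rejoining of the ends can remove anything from a few bases to megabases, or join pieces that were apart. In a line advanced by selfing, a deletion can become fixed on both homologs, be lost, or still segregate among sister plants. In aCGH, a sequence missing from both homologs leaves a probe with only background and cross-hybridized signal in the mutant dye, whereas a sequence missing from 1 of the 2 homologs moves the log2 ratio to about -1 at most. Soybean is an ancient polyploid with many duplicated segments, so a probe can also pick up related sequence from elsewhere in the genome.

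The plants did not fall out by their line labels at this locus. Plant 15, labeled P05, had low ratios at the same probes as both P06 plants, and plant 39, also labeled P05, did not. Averaged over the 49 probes, the ratio of P06 plant 35 was -4.56 and that of P06 plant 45 was -4.64. The P05 plants had averages of -4.55 (plant 15) and -0.081 (plant 39). The P06 mean was thus -4.60 ± 0.054 (SD, n = 2 plants), whereas that of P05, -2.31 ± 3.16 (SD, n = 2), lay between 2 plants of opposite kind and describes neither. Values are therefore given plant by plant. The paper lists a name ending in CM7F040P06 among those given to plants of its mutant's lineage, and it names no P05 line. It describes these data as 3 replications of that mutant, whereas there are 4 arrays under 2 line labels. The labels do not say which arrays are meant. What a P05 mean or a difference between the lines stands for is therefore uncertain here, and the spread between plants measures only the difference between these arrays.

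**Figure D1:**
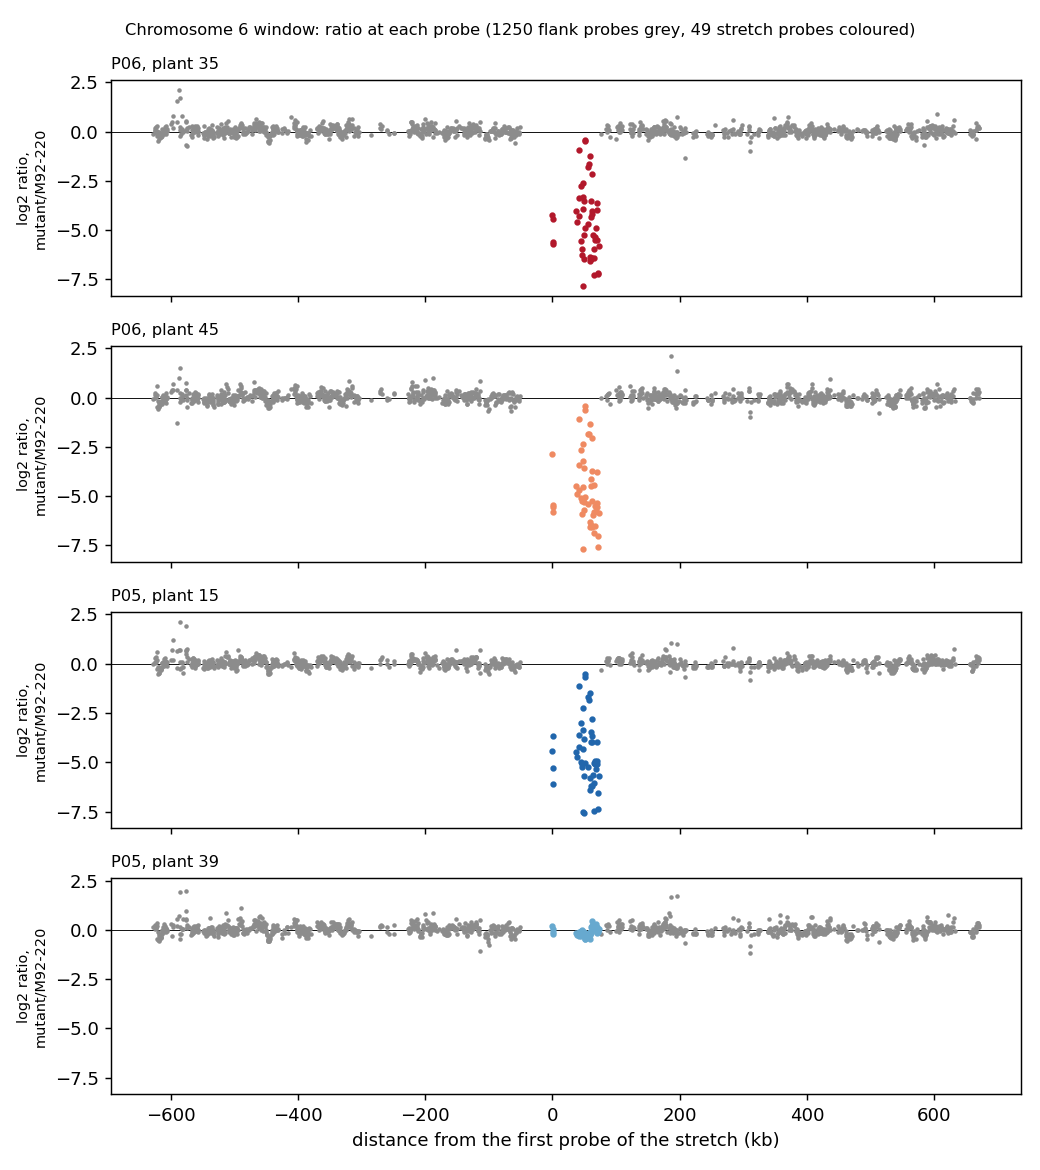
Log2 ratio of mutant over “M92-220” at each of the 1299 probes (y axis) against the distance in kb from the first probe of the stretch (x axis), 1 panel per plant, with flank probes in grey and the 49 stretch probes in color. Plants 35, 45 and 15 had stretch means of -4.56, -4.64 and -4.55, plant 39 had -0.081, and the flanks were near 0 in all 4.

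The limits of the stretch were the same in each low plant. The stretch was defined as the run of consecutive window probes with the most negative sum of ratios, divided by the square root of the number of probes, after the ratios of plants 35 and 45 were averaged. When the search was repeated in each plant alone, plants 15, 35 and 45 each returned the same 49 probes, with the same first and last probe. In plant 39 the same search returned 14 other probes, from 17679528 to 17687580, with a mean of -0.42. Those 14 probes had means of -0.33 in plant 15, -0.28 in plant 35 and -0.32 in plant 45, so the dip was shared by all 4 plants.

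From its first to its last probe the stretch measured 72.952 kb. The nearest probes outside it left room for up to 127.834 kb, because the array had no probe in 50.65 kb on the left side and in 4.232 kb on the right side. The left gap was the widest between neighboring probes in the window, and 0.120% of all gaps on the array were wider. The right gap was less unusual, with 39 wider gaps in the window and 2.46% of all gaps wider. Another gap, of 36.023 kb, lay inside the stretch between positions 18130573 and 18166597 and was exceeded in the window only by the left gap.

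The inner gap left 4 probes on its left, which together spanned 1.705 kb, and 45 probes on its right, which spanned 35.224 kb. The 4 probes left of the gap had means of -4.86 in plant 15, -0.028 in plant 39, -4.99 in plant 35 and -4.92 in plant 45. Means of the 45 probes on the right were -4.52, -0.086, -4.53 and -4.62 in the same order. Both sides were thus low in the same 3 plants and near 0 in plant 39. Whether the DNA between them was missing as well was not measured, since no probe lies there, and a single deletion cannot be told apart from a pair of deletions by these arrays.

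The change from baseline to low signal took place between neighboring probes at both ends. On the left, the second probe outside, Gm_CUST_P10925800 (18076701 to 18076760), had log2 ratios of -0.15 in plant 15, -0.0078 in plant 39, -0.11 in plant 35 and -0.077 in plant 45. At the nearest probe outside, Gm_CUST_P10925814 (18078159 to 18078218), the ratios were 0.092, 0.16, 0.23 and 0.11 in the same order. Plant 39 was the highest plant at the first of these probes and lay within the range of the others at the second, and no plant was far from 0 at either.

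The first probe of the stretch, Gm_CUST_P10925833 (18128869 to 18128928), had log2 ratios of -4.40 in plant 15, 0.21 in plant 39, -4.22 in plant 35 and -2.88 in plant 45. Its Cy3 signal was 10.03 in plant 15, 268 in plant 39, 11.1 in plant 35 and 27.3 in plant 45, whereas the Cy5 signal of “M92-220” was 213, 232, 208 and 203 on these arrays. The low signal was in the mutant dye alone. Signals are the scanner software's processed intensities in arbitrary units. None of the 3 low Cy3 signals was well above background, so the order of plants 15, 35 and 45 at this probe has no meaning.

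The last probe, Gm_CUST_P10926019 (18201761 to 18201820), had log2 ratios of -5.70 in plant 15, 0.024 in plant 39, -5.83 in plant 35 and -5.85 in plant 45. Its Cy3 signal was 11.5, 522, 10.02 and 9.67 in that order. The low plants lay within a narrow band here, far below plant 39. The nearest probe to the right, Gm_CUST_P10926041 (18206053 to 18206112), had -0.29, -0.23, -0.14 and -0.026, and the next one, Gm_CUST_P10926079 (18213015 to 18213068), 0.14, 0.27, 0.15 and 0.11. Plant 39 lay within the range of the others at the first of these and was the highest at the second, and all 4 plants were near 0 at both. The right end of the low stretch therefore lay within the 4.232 kb between the last probe and Gm_CUST_P10926041, and the left end within the 50.65 kb before the first probe.

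**Figure D2:**
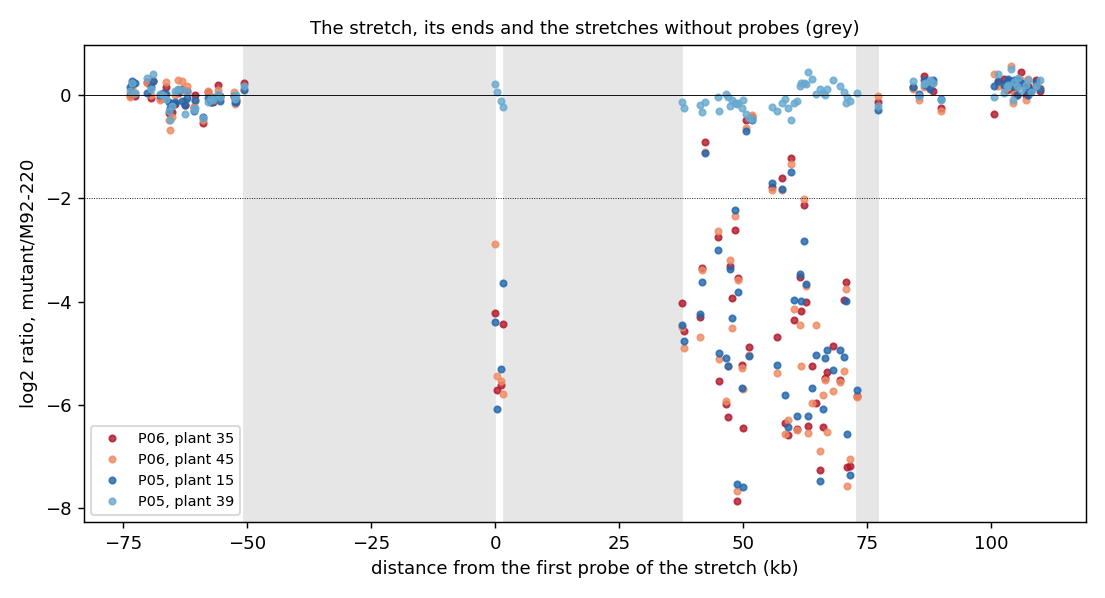
Log2 ratio of mutant over “M92-220” (y axis) at the probes of the stretch and the nearest flank probes against distance in kb from the first probe of the stretch (x axis), 1 color per plant; grey bands hold no probe and the dotted line marks -2. The bands are 50.65, 36.023 and 4.232 kb wide, and plant 39 stayed between -0.49 and 0.45 at all 49 probes of the stretch.

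The probes of the stretch were ordinary in design. Their median length was 60 bases, as in the flanks and over the whole array, and 34.7% of them were shorter than 60 bases, compared with 34.0% in the flanks and 31.0% of all probes. The median gap between neighbors was 513.5 bases in the stretch, 440 in the flanks and 416 over the array. Together the 49 probes covered 2773 bases, so most of the 72952 bases were not sampled. Gene models and probe sequences of this genome version were not used here, so no genes are named in the stretch.

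The reference dye was normal across the stretch. Cy5 was well above background, by the scanner software's mark, at all 49 probes on all 4 arrays, with medians of 1073 on the array of plant 15, 1111 on that of plant 39, 988 on that of plant 35 and 1035 on that of plant 45. The median Cy3 signal was 20.9 in plant 15, 1056 in plant 39, 25.9 in plant 35 and 24.6 in plant 45. Over all probes of an array the median lay between 1034 and 1054 in each dye. The Cy3 signal of plant 39 in the stretch was thus at the level of the whole array, and that of the other plants far below it.

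At many stretch probes the mutant signal was so low that the ratio is only a bound. The scanner software did not mark Cy3 as well above background at 29 of 49 probes (59.2%) in plant 15, 28 (57.1%) in plant 35 and 30 (61.2%) in plant 45. In plant 39 there were 0 such probes. In the flanks this was so at 2.24% to 3.04% of the probes of each plant. Each array carried 2445 negative control spots, whose median Cy3 signal was 10.6 in plant 15, 10.8 in plant 39, 9.06 in plant 35 and 8.59 in plant 45. At the stretch probes not well above background the median Cy3 signal was 11.7 in plant 15, 11.1 in plant 35 and 11.8 in plant 45, which is close to these controls. Of the 49 probes, 25 in plant 15, 23 in plant 35 and 21 in plant 45 were at or below the 95th percentile of the negative controls of their array, compared with 0 in plant 39.

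For the 28 probes that were not well above background in both P06 plants, the mutant signal was at least 5.85- to 59.5-fold lower than that of “M92-220”, with a median bound of 18.1-fold. The bound sets the Cy5 signal against the higher of the probe's own Cy3 signal and the dimmest Cy3 signal well above background on the array, as means of log2 values over the P06 arrays, and without a dye swap it is open to dye bias. The highest bound was at Gm_CUST_P10925890 (18177583 to 18177642), which also had the lowest P06 mean ratio of the stretch. Its Cy3 signal was not well above background in plants 15, 35 and 45, so its rank by ratio has no meaning. Its log2 ratios were -7.52 in plant 15, -0.17 in plant 39, -7.85 in plant 35 and -7.66 in plant 45.

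**Figure D3:**
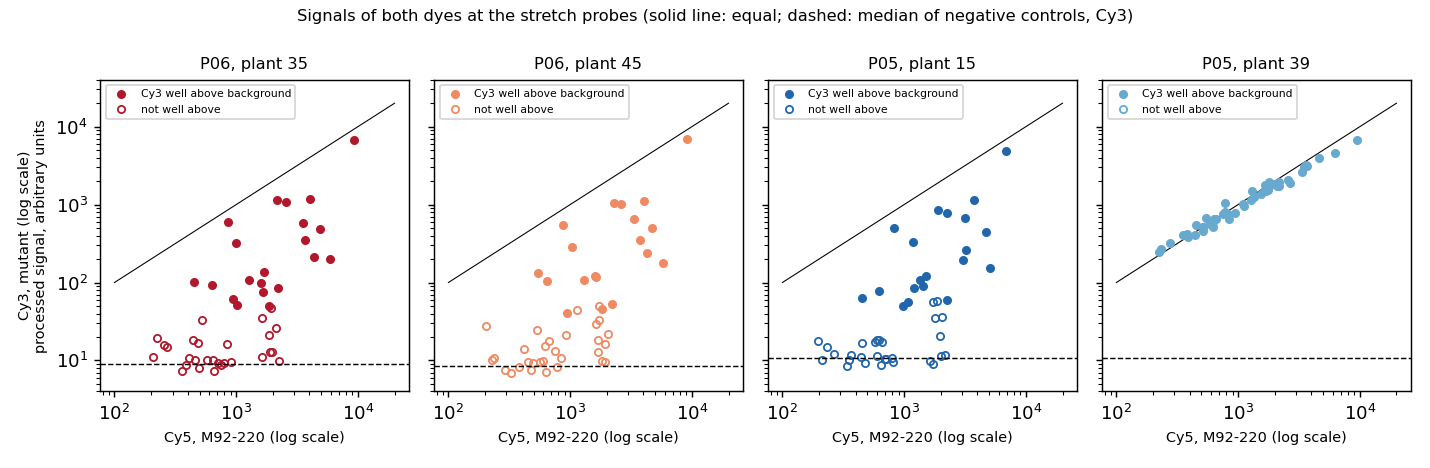
Processed Cy3 signal of the mutant (y axis, log scale) against processed Cy5 signal of “M92-220” (x axis, log scale), both in arbitrary units, at the 49 stretch probes, 1 panel per plant; open circles are probes whose Cy3 signal was not well above background, the solid line marks equal signal and the dashed line the median of the negative controls. The 49 points of plant 39 lie along the line of equal signal, and 28 to 30 points in each of the other plants are open circles.

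The ratios varied widely among the 49 probes within each low plant. They ran from -7.59 to -0.50 in plant 15, from -7.85 to -0.44 in plant 35 and from -7.66 to -0.40 in plant 45, with an SD over probes of 1.75, 1.85 and 1.82. In plant 39 they ran from -0.49 to 0.45 with an SD of 0.21. Ratios at or below -4 were found at 31 probes in plant 15, 33 in plant 35 and 34 in plant 45. A further 12, 10 and 9 probes lay between -4 and -2, 4, 3 and 4 between -2 and -1, and 2, 3 and 2 above -1. The same 43 probes were at or below -2 in all 3 plants.

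The order of the probes was much the same in these plants. Across the 49 probes, Pearson's r was 0.95 between plants 35 and 45, 0.97 between 15 and 35, and 0.93 between 15 and 45, with median absolute differences of 0.22, 0.35 and 0.26. The probes share the same arrays, the same reference DNA and, between arrays, the same brightness, so these are descriptions of these arrays and not evidence from independent points. Over the 18 probes with Cy3 well above background in plants 15, 35 and 45, r was 0.98 to 0.99, and over the 28 probes not well above background in any of them, where the ratios are bounds, it was 0.74 to 0.88. Across the flanks, r between plants was 0.65 to 0.78 over 1250 probes.

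Each probe was also set against plant 39, in which the stretch was near baseline. At the probes whose Cy3 signal was not well above background, this percent depends on the background of the mutant dye and has no order. In each of plants 15, 35 and 45, the same 6 probes were above 25%, and Cy3 was well above background at all 6. The highest were 98.5%, 103% and 105%, all at 1 probe, Gm_CUST_P10925908, whose ratio was thus near that of plant 39.

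**Figure D4:**
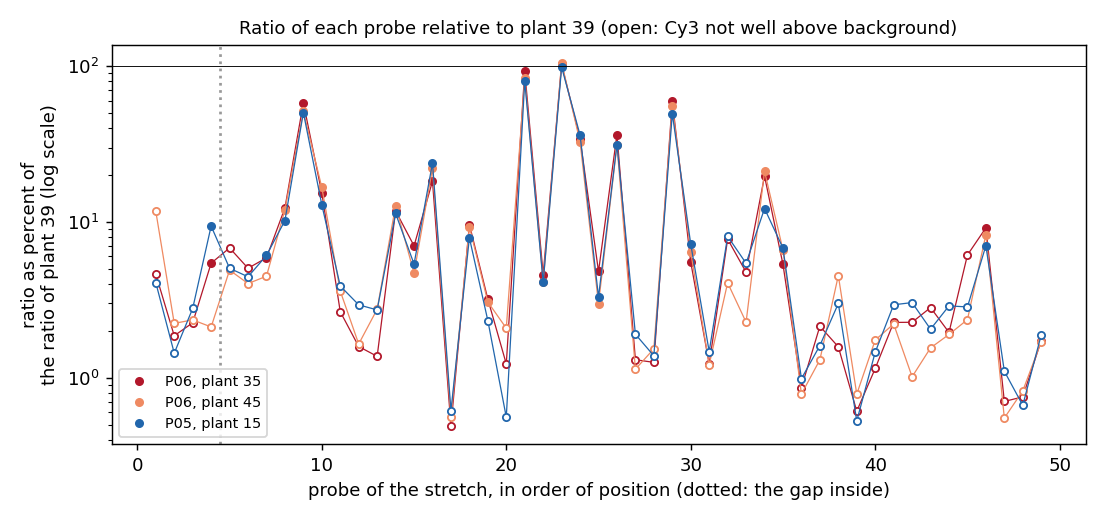
Ratio of mutant over “M92-220” as a percent of the ratio in plant 39 (y axis, log scale) for the 49 stretch probes in order of position (x axis), 1 line per plant; open circles are probes whose Cy3 signal was not well above background, and the dotted line marks the gap inside the stretch. The same 6 probes stood above 25% in plants 15, 35 and 45, and 28 to 30 of the 49 points of each plant are open circles.

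The 6 probes above -2 in the mean of P06 all lay in the interior, between 18171139 and 18188524. They were Gm_CUST_P10925861, Gm_CUST_P10925900, Gm_CUST_P10925908, Gm_CUST_P10925929, Gm_CUST_P10925936 and Gm_CUST_P10925952. Their median Cy5 signal over the 4 arrays was 2309 (845 to 8615), compared with 874 (214 to 5742) for the other 43, so the ranges overlapped. Of the 6, 4 were shorter than 60 bases, compared with 13 of the 43. Their median Cy3 signal was 826 in plant 15, 1108 in plant 35 and 1041 in plant 45, well above background, compared with 17.7, 18.5 and 18.2 at the other 43 probes. Cross-hybridization of these probes to other sequence was not tested, as the files hold no probe sequence.

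Only 2 of the 6 were above -1 in the mean of P06. Gm_CUST_P10925908 (18180707 to 18180755) had log2 ratios of -0.50 in plant 15, -0.47 in plant 39, -0.44 in plant 35 and -0.40 in plant 45. This probe did not set plants 15, 35 and 45 apart from plant 39, and it was the single stretch probe among the brightest 1% of the array in Cy5. Gm_CUST_P10925900 (18179517 to 18179562) had -0.70, -0.38, -0.49 and -0.65 in the same order, or 80.4%, 92.6% and 83.3% of the ratio of plant 39 in plants 15, 35 and 45. Between these 2 probes lay Gm_CUST_P10925904 (18180101 to 18180147), with -5.06 in plant 15, -0.45 in plant 39, -4.89 in plant 35 and -5.04 in plant 45, so these 2 were not neighbors. The next probe to the right of Gm_CUST_P10925908 was Gm_CUST_P10925929, also among the 6, across a gap of 3.862 kb without probes.

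The other 4 of the 6 were intermediate. Gm_CUST_P10925861 (18171139 to 18171198) had log2 ratios of -1.13 in plant 15, -0.14 in plant 39, -0.92 in plant 35 and -1.10 in plant 45, which is 50.3%, 58.1% and 51.2% of the ratio of plant 39. Gm_CUST_P10925952 (18188480 to 18188524) had -1.50, -0.49, -1.23 and -1.34. Each stood alone, with a lower ratio in plants 15, 35 and 45 at the probes on both sides. Gm_CUST_P10925929 (18184618 to 18184674) had -1.70, -0.24, -1.78 and -1.85, and Gm_CUST_P10925936 (18186658 to 18186717) -1.83, -0.16, -1.62 and -1.84. On the other side of the threshold of -2, the nearest probes were Gm_CUST_P10925974, with a P06 mean of -2.08, and Gm_CUST_P10925887, with -2.48.

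Plant 39 had small swings across the stretch. Its mean over 15 neighboring probes ran from -0.26 (18177117 to 18189074) to 0.14 (18189712 to 18199179). Over 15 neighbors in its flanks the mean ran from -0.40 to 0.48, over many more sets of neighbors. In the flanks of plants 15, 35 and 45 such means ran from -0.31 to 0.46, -0.28 to 0.59 and -0.33 to 0.35. The ratios of plant 39 within the stretch went down with reference brightness, with a Spearman correlation of -0.65 across the 49 probes. The same correlation across its 1250 flank probes was -0.51. In plants 15, 35 and 45 it was 0.17, 0.15 and 0.16 within the stretch, but -0.32, -0.39 and -0.59 across the flanks. The trend across the flanks was thus shared by all 4 plants. Correlations across probes of 1 array share its dyes and background and are given as descriptions.

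Plant 39 had the highest ratio of the 4 plants at 48 of the 49 stretch probes, compared with 247 of the 1250 flank probes. The stretch was chosen for its low P06 ratios, so this count is a description and carries no test. Both P06 plants lay below both P05 plants at 20 of the 49 probes. Over all probes of the array this order of the lines was found at 22.7%, and in the flanks at 269 of 1250 probes (21.5%). Plant 15 mostly lay among or below the P06 plants, so the lines as labeled overlapped at the other stretch probes except Gm_CUST_P10925908. There, both P05 plants lay slightly below both P06 plants.

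In the limma fit of all 4 arrays, with 1 mean per line and a shared estimate of the spread, no probe of the window was called lower in P06 than “M92-220” by treat against a log2 ratio of 1 (0 of 1299, Benjamini-Hochberg adjusted p under 0.05). At an unadjusted p under 0.05 the count was 44, with no share over all probes at that limit to set beside it. At the adjusted limit, 0.0875% of all 951298 tested probes were called. The estimate of the spread at each stretch probe includes the difference between plants 15 and 39. With the P06 arrays alone, 45 window probes were called, all of them in the stretch, beside 0.158% of all probes. The 4 stretch probes not called were Gm_CUST_P10925861, Gm_CUST_P10925900, Gm_CUST_P10925908 and Gm_CUST_P10925952. Since the window was chosen on these ratios, nothing is read from these counts.

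For P05, no window probe was called lower in the fit of all 4 arrays (0 of 1299). At the same adjusted limit, 0.00463% of all probes were called lower. The window count at an unadjusted p under 0.05 was 1, again without a share over all probes. Without plant 39 the P05 line has 1 plant, so only the mean ratio of the stretch is given, -4.55. For the difference of P06 minus P05, 0 of 1299 were called lower, beside 0.0769% of all probes at the adjusted limit. The window count at an unadjusted p under 0.05 was 2, also without such a share. Without plant 15, which left plant 39 as the only P05 plant, the difference over the stretch was -4.52. Nothing is read from these counts either, since the window was chosen on these ratios.

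The flanks were close to baseline in every plant. The mean over the 1250 flank probes was 0.039 in plant 15, 0.022 in plant 39, 0.036 in plant 35 and 0.024 in plant 45. On the left, the 10 probes nearest to the stretch had means of -0.11, -0.074, -0.063 and -0.066, and the 10 nearest on the right 0.11, 0.12, 0.045 and 0.096. No flank probe was at or below -2 in any plant. In bins of 100 kb, the 12 bins with flank probes had means between -0.054 and 0.13, and the plants differed by at most 0.11 within a bin. The low signal was thus limited, at the resolution of the probes, to the stretch between 18078218 and 18206053.

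Single flank probes strayed further, and nearly all of them were dim. Of the 1250 flank probes, 11 were beyond 1 in either direction in at least 1 plant, and 2 of these had Cy5 well above background on all arrays. The first, Gm_CUST_P10926884 (18439262 to 18439321), had -0.84 in plant 15, -1.19 in plant 39, -0.98 in plant 35 and -0.999 in plant 45, with Cy5 signals of 8011 to 8490. It was low to a similar degree in all 4 plants, plant 39 included. The second, Gm_CUST_P10923916 (17639836 to 17639895), had 0.33, 1.11, 0.42 and 0.59 at Cy5 signals of 53.6 to 66.8.

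The flank probes with the highest means over the 4 plants were Gm_CUST_P10923418 (1.81), Gm_CUST_P10926410 (1.30), Gm_CUST_P10926492 (1.20) and Gm_CUST_P10923414 (1.13), and Cy5 was well above background at none of them on any array. Those with the widest range over the plants were Gm_CUST_P10923410 (2.86), Gm_CUST_P10923463 (2.65), Gm_CUST_P10925472 (1.94), Gm_CUST_P10926410 (1.75) and Gm_CUST_P10923414 (1.45). Gm_CUST_P10923410 shows their scatter, with log2 ratios of -0.21 in plant 15, 0.20 in plant 39, 1.56 in plant 35 and -1.30 in plant 45 at Cy5 signals of 13.0, 14.4, 6.27 and 26.1. The 2 plants of P06 stood at opposite ends there. Of the flank probes, 1213 had Cy5 well above background on all 4 arrays, and over these the range over the plants had a median of 0.17.

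At 2 other loci, read by the same interval search, the same plants were low. These loci were picked for low ratios in the same plants. The recurrence is therefore a description that carries no test, and other low regions were not read here. On chromosome 10, 249 probes from 14796450 to 15370810 (574.361 kb) had means of -5.00 in plant 15, -0.052 in plant 39, -4.95 in plant 35 and -5.06 in plant 45. On chromosome 14, 18 probes from 26774074 to 26801907 (27.834 kb) had means of -3.13, 0.031, -3.05 and -3.10. The chromosome 6 stretch lay between them in length. The means do not order the loci, since Cy3 was not well above background at 57.1% to 66.3% of the probes of the chromosome 6 and 10 loci in plants 15, 35 and 45, and the ratios there are bounds. Probes above -2 in P06 made up 12.2% of the chromosome 6 stretch (6 of 49), 11.6% on chromosome 10 (29 of 249) and 38.9% on chromosome 14 (7 of 18). These differences between loci were not tested, and all 3 loci come from the same 4 plants.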

How the data were processed

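Leaf DNA of 4 plants was compared with that of “M92-220” by aCGH (500 ng of each DNA; hybridization for 66 hr at 67 degrees). Per the file headers, each array was read with Agilent Feature Extraction 12.0.0.7, which subtracted background, removed spatial trends and scaled the dyes linearly to make the deposited processed intensity of each dye. The deposited files also give a log10 ratio with its error, of which the error alone was used, for the weights of 1 alternative, and marks for spots not well above background and for outliers. A deposited table of log2 ratios, processed by the authors, differed from the processed signals' ratio by a constant per array (within 0.01 at 99.98% or more of probes) and lacked 20 window probes, none of the stretch; it was used as an alternative. All of its columns matched a plant.

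Marked spots (210 to 861 of 960745 probe spots per array) were left out, spots of a probe were averaged, and the log2 ratio of Cy3 over Cy5 was centered on the array median (removed: -0.0038 to -0.0082), with no loess or quantile step. The fit across probes used limma 3.58.1 under R 4.3.3 (lmFit, treat, Benjamini-Hochberg over 951298 probes); the ratio is tested against “M92-220”, whose own spread is left out. The interval search and the fit were tested on simulated data. Python 3.11.15, numpy 2.4.6, pandas 2.3.3, scipy 1.17.1 and matplotlib 3.10.9 were used.

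Named probes were the first and last of the stretch and the 2 nearest outside at each end, its lowest probe, those above -1 in the P06 mean, and the 5 flank probes farthest from 0 or with the widest range; the other stretch probes and Gm_CUST_P10923916 were named after their values were seen. The window, probe lists and rules were chosen with earlier results of these data known. Alternatives were the centering, marked spots, normexp background correction (offset 50, on the median spot signals, as no mean signal was in the columns used), the table of ratios, dim probes, other definitions and thresholds, other fits, and each plant left out. The number of arrays limits the precision.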

Additional observations from a re-analysis of the deposited data

How the results depend on the processing

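Of 79 values recomputed under the alternatives, 0 changed sign and 12 moved by more than the spread between plants (counts by over 1.5 times). The other 67 did not pass these limits, but the limit is wide for the P05 mean and for the difference between the lines, since the P05 plants had an SD of 3.16, and both moved far under some settings. With normexp background correction, the P06 mean of the stretch was -2.23 instead of -4.60, the P05 mean -1.19 instead of -2.31, P06 minus P05 -1.05 instead of -2.29, 25 instead of 43 window probes were at or below -2, and the P06 mean of the flanks was 0.0095 instead of 0.030; by its construction the offset raises low signals in both dyes. The stretch found under normexp had 48 probes and measured 72.622 kb instead of 72.952 kb. The median over probes, without normexp, was -4.96 for the stretch and 0.017 for the flanks. The flanks had a mean of 0.041 when centered on chromosome 6 and 0.020 over probes with Cy5 well above background. Over all 951298 probes, limma called 832 lower in P06 by treat in all 4 arrays and 2047 by eBayes with a mean beyond 1. With the P06 arrays alone 1502 were called, and after normexp 703. The limma count of window probes lower in P06 was 0 by treat in all 4 arrays and 47 by eBayes with a mean beyond 1. It was 45 with the P06 arrays alone and 1 after normexp. Without plant 15 or without plant 39 the P05 line has 1 plant, which adds nothing to the estimate of the spread, and this count was 45 in both cases.

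With each plant left out in turn, the P06 mean of the stretch ran from -4.64 to -4.56, the P05 mean from -4.55 (without plant 39) to -0.081 (without plant 15), their difference from -4.52 (without plant 15) to -0.054 (without plant 39), the P06 mean of the flanks from 0.024 to 0.036 and the limma count from 0 to 45. The length of 72.952 kb and the 43 probes did not move when P06 plant 35 or 45 was left out. Both rest on the P06 plants alone, so leaving out plant 15 or 39 could not change them. No paired analysis was possible because no plant number occurs in both lines. The probe gaps limit the ends, and Cy3 background limits the depth of the ratio at 28 to 30 stretch probes per low plant.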
